A study of Mus musculus with 16 samples.

Results

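The replication-dependent histone genes of mouse were described across a pair of activated CD8 T cell clones, each with and without the calcineurin inhibitor cyclosporine A. A probe set, the set of array probes summarised to 1 value, was included where at least 1 of its gene symbols is a gene whose older name starts with Hist1h, Hist2h, Hist3h or Hist4h. The platform annotation gives only current symbols, so older names were read from the synonyms of the RefSeq gene table. By this rule 58 of 28853 probe sets were included, and they name 69 of the 70 such genes in that table. Of the 58, 31 carry 1 gene symbol, 3 carry 2, and 24 are shared by 11 to 20 gene symbols each because the coding sequences of these genes are nearly the same.

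RNA from 4 groups of 4 arrays was measured on Affymetrix whole-transcript arrays, 16 arrays in all. Per the labels, the clone called conventional is sensitive to cyclosporine and the clone called unconventional is resistant to it. All 4 groups were stimulated with immobilized antibody against CD3 in medium that held no recombinant cytokines, after growth in a cytokine mixture, and 1 group of each clone also received cyclosporine A at 1 ug per ml. Each cell type is represented by a single clone, so a difference between the clones is not a difference between classes of CD8 T cell. Unstimulated cells were not analysed here, and no source used here gives the mouse strain or the time of stimulation. The labels do not say whether the 4 replicates were separate cultures. A p-value reflects the spread of arrays within groups, with 1 estimate per probe set shared by all 4 groups (16 arrays). That spread may therefore be technical only, and it is not the spread of the groups compared alone.

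Replication-dependent histones are the H1 linker histones, which bind the DNA between nucleosomes, and the core histones H2A, H2B, H3 and H4, which form the nucleosome. Their genes lie in clusters, lack introns and are transcribed mainly in S phase, when new DNA is packed into chromatin. Their mRNAs end in a stem-loop bound by SLBP in place of a poly(A) tail, and they are degraded when DNA replication stops. T cells that are activated through the T cell receptor enter the cell cycle, and cyclosporine A, by blocking calcineurin and NFAT, limits that entry in sensitive cells. Total RNA was labelled here, so that a transcript did not need a poly(A) tail to be extracted.

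The promoters of 7 of the 31 genes with a probe set of their own are shown, at least 1 from each histone class, so that their letters can be read beside the values of these genes on the arrays. They were picked with those values known. Of the 69 genes, 62 have an entry in the RefSeq promoter table (build GRCm38.p6), with 63 windows. Each window below is the 250 bases before the transcription start, 5′ to 3′ on the gene's strand. Capitals mark 5 motifs, each searched on both strands. The letters CCAAT are bound by the factor NF-Y. The letters TATAAA are those of a box at which the basal transcription machinery assembles. The letters ATTTGCAT form the octamer that POU2F1 is known to bind in H2B genes. The letters AAACACA are a box known from the promoters of linker histone genes. The letters GGTCC are the core of the element that HINFP is known to bind in H4 genes. H1f5 (Hist1h1b, chr13:21780626-21780875, minus strand) and H1f2 (Hist1h1c, chr13:23738557-23738806, plus strand) encode linker histones, H2ac4 (Hist1h2ab, chr13:23750838-23751087, plus strand) an H2A, and H2bc3 (Hist1h2bb, chr13:23746484-23746733, plus strand) an H2B. H2bc18 (Hist2h2bb, chr3:96269450-96269699, plus strand) is an H2B gene and H3c15 (chr3:96239128-96239377, minus strand) an H3 gene of the Hist2 cluster, and H4c6 (Hist1h4f, chr13:23551669-23551918, minus strand) is an H4 gene.
H1f5: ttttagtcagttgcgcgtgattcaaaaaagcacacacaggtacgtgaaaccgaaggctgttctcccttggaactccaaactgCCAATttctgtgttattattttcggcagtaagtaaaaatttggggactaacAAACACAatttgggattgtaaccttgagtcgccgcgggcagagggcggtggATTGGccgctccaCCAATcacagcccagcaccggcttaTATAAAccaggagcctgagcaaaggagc
H1f2: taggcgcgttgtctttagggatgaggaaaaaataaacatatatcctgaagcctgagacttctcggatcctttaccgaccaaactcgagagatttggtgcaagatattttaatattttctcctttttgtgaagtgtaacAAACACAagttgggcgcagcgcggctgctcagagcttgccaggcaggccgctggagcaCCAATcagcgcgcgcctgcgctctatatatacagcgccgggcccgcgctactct
H2ac4: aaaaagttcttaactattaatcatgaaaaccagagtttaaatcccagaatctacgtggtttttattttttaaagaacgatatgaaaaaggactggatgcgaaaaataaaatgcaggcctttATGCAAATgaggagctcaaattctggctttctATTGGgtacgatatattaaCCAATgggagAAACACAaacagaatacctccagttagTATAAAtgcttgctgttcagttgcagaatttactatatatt
H2bc3: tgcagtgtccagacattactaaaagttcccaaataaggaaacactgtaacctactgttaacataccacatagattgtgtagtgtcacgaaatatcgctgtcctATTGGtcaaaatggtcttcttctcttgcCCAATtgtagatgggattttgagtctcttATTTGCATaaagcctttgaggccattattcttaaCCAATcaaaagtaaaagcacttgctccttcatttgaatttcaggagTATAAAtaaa
H2bc18: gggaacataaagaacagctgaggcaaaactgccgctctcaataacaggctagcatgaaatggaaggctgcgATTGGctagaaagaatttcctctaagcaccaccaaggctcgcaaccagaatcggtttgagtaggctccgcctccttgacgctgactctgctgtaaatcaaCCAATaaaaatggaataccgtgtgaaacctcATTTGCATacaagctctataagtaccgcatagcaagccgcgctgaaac
H3c15: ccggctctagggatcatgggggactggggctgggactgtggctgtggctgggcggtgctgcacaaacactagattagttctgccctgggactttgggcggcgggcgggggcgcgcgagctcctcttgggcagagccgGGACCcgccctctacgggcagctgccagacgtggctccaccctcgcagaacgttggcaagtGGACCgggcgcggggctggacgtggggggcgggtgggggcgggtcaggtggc
H4c6: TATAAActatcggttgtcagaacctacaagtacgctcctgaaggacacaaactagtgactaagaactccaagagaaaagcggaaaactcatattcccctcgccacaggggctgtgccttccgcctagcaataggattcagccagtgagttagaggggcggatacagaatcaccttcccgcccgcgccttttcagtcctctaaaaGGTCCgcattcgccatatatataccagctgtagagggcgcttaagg

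The letters CCAAT stood in 6 of 6 H1 windows, 18 of 18 H2A windows, 17 of 17 H2B windows, 8 of 10 H3 windows and 3 of 12 H4 windows, against 33.8% of all 32851 promoter windows of that length. The octamer stood in 7 of 18 H2A windows and 7 of 17 H2B windows, in 0 of the H1, H3 and H4 windows, and in 1.6% of all promoter windows. The H1 box stood in 5 of 6 H1 windows, 2 of 18 H2A windows and 2 of 17 H2B windows, and in 6.25% of all. GGTCC stood in 11 of 12 H4 windows and 39.8% of all, and TATAAA in 29 of the 63 histone windows and 12.4% of all. H2A and H2B genes often lie head to head and share the stretch between them, so their windows are not independent. Matches were counted anywhere in the window. Among the windows shown, TATAAA stood 250 bases before the start in H4c6, 41 in H2ac4, 28 in H1f5 and 10 in H2bc3. A match of letters is a description and not a binding site.

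The values are log2 expression values as deposited, so a difference of 1 is a doubling of the signal. The 16 array medians lay between 5.16 and 5.35 over all probe sets, arrays of the same group correlated at 0.995 to 0.998, and no pair of arrays was identical. T cell identity was checked with marker genes. Group means of Cd3d, Cd3e, Cd3g, Thy1, Cd8a and Cd8b1 lay between 8.56 and 12.7, the Cd2 probe set was low at 3.99 to 4.25 and Cd4 lay at 4.21 to 4.32. Markers of B cells, macrophages, red cells, epithelium, fibroblasts and testis, 20 genes in all, lay between 3.09 and 6.68, and 6 of their 80 tests were called. Of the 7 T cell markers, 4 rose and 2 fell with cyclosporine A in the conventional clone, and 3 rose and 2 fell in the unconventional clone. Cd3d, Cd3e and Cd3g rose by 0.22 to 0.54 in both clones, and Cd2 rose by 0.26 in the conventional clone. Thy1 fell from 11.54 to 10.54 and from 11.64 to 10.98 (conventional and unconventional clone) and Cd8a by 0.58 and 1.75, while Cd8b1 was not called in either. The part of these markers in the histone changes was not tested. In bulk RNA, fewer cells in S phase and less histone RNA per cell cannot be told apart.

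In the conventional clone cyclosporine A lowered 25 of the 58 histone probe sets and raised 3, and the other 30 were not called. A probe set is called where limma's Benjamini-Hochberg adjusted p over all 28853 probe sets is under 0.05. Of all probe sets, 13.7% were called lower and 13.5% higher in this comparison. The 24 shared probe sets, many of which detect the same genes, gave 17 of the 25 lower calls. Of the 31 with 1 gene symbol, 6 were called lower, 3 higher and 22 not, with a median change of −0.10. The median change of the 58 was −0.23 on the log2 scale, beside 0.01 for all probe sets, and the members ran from −1.60 to 0.48. Of them, 3 were called and at least 2-fold lower, against 2.21% of all probe sets, and these were H1f5, H2ac4 and an H3 probe set. The 4 treated arrays lay wholly below the 4 untreated ones for 24 of the 58, against 13.8% of all.

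In the unconventional clone cyclosporine A lowered 42 of the 58 and raised 2, and 14 were not called. The background of this comparison was 10.4% lower and 10.2% higher. All 24 shared probe sets were called lower. Of the 31 with 1 gene symbol, 16 were called lower, 2 higher and 13 not. The median change was −0.39, beside 0.01 for all probe sets, with a narrower range of −0.86 to 0.48, and 0 members were called and at least 2-fold lower, against 0.863% of all probe sets. The treated arrays lay wholly below the untreated arrays for 33 of the 58, against 11.8% of all. The count of 42 rested on small shifts. It fell to 28 without the cyclosporine A array of replicate 1, to 31 without that of replicate 2, and to 34 and 32 without the untreated arrays of replicates 3 and 4 of this clone.

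**Figure D1:**
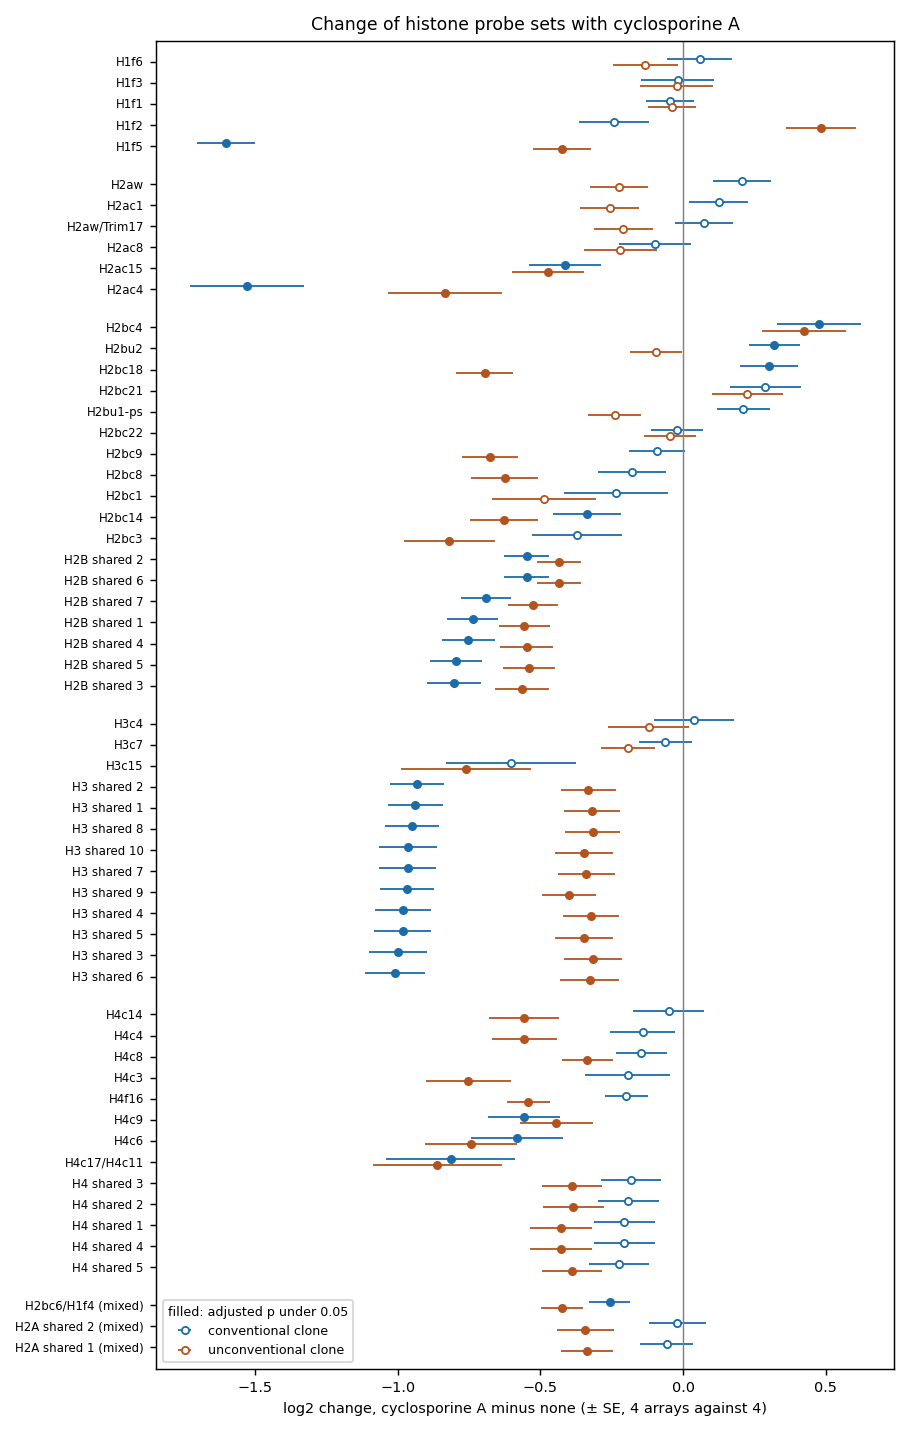
Log2 change with cyclosporine A (x axis, with its SE) of each of the 58 histone probe sets (y axis, by class) in the conventional clone (blue) and the unconventional clone (brown), filled where the adjusted p is under 0.05. The 10 shared H3 probe sets sit near −0.97 in the conventional clone and −0.33 in the unconventional clone, while the 5 shared H4 probe sets sit nearer 0 in the conventional clone than in the unconventional clone.

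The H1 linker histones did not move together. H1f5 (probe set 10408081) was the histone gene with the largest change in the conventional clone. Its values there were 10.41, 10.24, 10.57 and 9.98 without and 8.71, 8.76, 8.66 and 8.67 with cyclosporine A. The groups were far apart, and the change was −1.60 (SE 0.10, limma adjusted p = 6.23e-10), a 3.04-fold fall. H1f5 in the unconventional clone stood at 12.34, 12.30, 12.57 and 12.40 without and at 11.93, 11.86, 12.10 and 12.02 with the drug. These groups did not overlap either, and the fall of 0.43 (SE 0.10, adjusted p = 0.00422) was smaller by 1.18 (SE 0.14, adjusted p = 1.16e-05).

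H1f2 (probe set 10404059), a linker histone gene also known to make polyadenylated transcripts, went the other way in the unconventional clone. It stood there at 9.25, 9.30, 9.33 and 9.20 without and at 9.92, 9.96, 9.79 and 9.36 with cyclosporine A, a rise of 0.48 (SE 0.12, adjusted p = 0.00737). Every treated array was above every untreated one, replicate 4 by the smallest margin. In the conventional clone it stood at 8.94, 8.90, 8.82 and 8.89 without and at 8.61, 9.03, 8.49 and 8.47 with the drug, and the change of −0.24 (SE 0.12) was not called, with an adjusted p of 0.178. There 3 of the 4 treated arrays were below the untreated ones, replicate 2 was above them, and without that array the change was −0.37 and called (adjusted p = 0.0169). The effects of the drug on H1f2 differed between the clones by 0.72 (SE 0.17, adjusted p = 0.00788). The windows of H1f5 and H1f2 both hold the H1 box, 117 and 112 bases before the start, and a CCAAT 53 and 54 bases before it.

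A probe set that names the linker histone gene H1f4 with the H2B gene H2bc6 was called lower in both clones. Its changes were −0.26 (conventional) and −0.425 (unconventional), and it cannot say which of the genes moved. The other probe sets, which name H1 genes alone, were not called with cyclosporine A in either clone. The log2 difference with the drug was −0.04 in both clones for H1f1 and −0.02 in both for H1f3. H1f6 (Hist1h1t), the testis form of H1, was low on the scale. It read 4.03, 4.56, 4.44 and 4.31 without and 4.76, 4.26, 4.33 and 4.21 with the drug in the conventional clone, and 4.20, 4.24, 4.13 and 4.19 without and 4.09, 4.18, 3.98 and 3.98 with it in the unconventional clone, with overlap in both.

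Among H2A probe sets of 1 gene, H2ac4 (probe set 10404063) fell most. In the conventional clone it read 5.80, 5.03, 6.15 and 6.13 without and 4.37, 3.98, 4.36 and 4.28 with cyclosporine A. The groups did not overlap, although replicate 2 was low in both, and the change was −1.53 (SE 0.20, adjusted p = 6.84e-06). It read, in the unconventional clone, 8.83, 8.77, 9.12 and 8.94 without and 7.92, 7.73, 8.24 and 8.43 with the drug, again without overlap, a fall of 0.83 (SE 0.20, adjusted p = 0.00448). The difference of the effects, 0.69 (SE 0.28), was not called (adjusted p = 0.135), but it was without the untreated conventional array of replicate 2, where it was 0.94 (adjusted p = 0.00436). The treated conventional arrays are near the low end of the scale, where array values compress a change.

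H2ac15 fell in both clones. Its values were 8.34, 8.11, 8.50 and 8.10 without and 7.92, 7.77, 7.86 and 7.85 with the drug in the conventional clone, a change of −0.41 (SE 0.13, adjusted p = 0.0191). The unconventional values were 10.11, 10.18, 10.43 and 10.50 without and 9.57, 9.65, 10.19 and 9.91 with it, a change of −0.47 (SE 0.13, adjusted p = 0.0102). The groups did not overlap in the conventional clone, but in the unconventional clone a treated array, replicate 3, lay above the lowest untreated ones. The conventional call was lost without the untreated array of replicate 1 (−0.39, adjusted p = 0.0513) or replicate 3 (−0.33, adjusted p = 0.0729). The difference of the effects was −0.06 (SE 0.18).

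The other 4 H2A probe sets, those of H2ac1 (the testis form), H2ac8, H2aw and H2aw with Trim17, were not called with the drug in either clone. Their log2 differences with the drug ran from −0.10 to 0.21 in the conventional clone and from −0.26 to −0.21 in the unconventional clone. A pair of shared probe sets that name 17 H2A genes each, with 1 H3 gene and other symbols, did not pass the test in the conventional clone. The brighter of them, H2A shared 1, read 12.18, 12.15, 12.37 and 12.05 without and 12.23, 12.12, 12.16 and 12.01 with cyclosporine A, a change of −0.06 (SE 0.09). The unconventional values were 13.10, 13.25, 13.41 and 13.44 without and 12.80, 12.88, 13.12 and 13.06 with the drug, a change of −0.34 (SE 0.09, adjusted p = 0.0126). The groups overlapped in both clones, in the unconventional clone by replicate 3 of the treated and replicate 1 of the untreated arrays. The unconventional call was lost without treated replicate 1 (−0.28, adjusted p = 0.0549).

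All 7 shared H2B probe sets, which name 14 or 15 genes each, fell in both clones. Their changes ran from −0.80 to −0.55 in the conventional and from −0.56 to −0.43 in the unconventional clone, and the effects did not differ by the test for any of the 7 (differences of 0.11 to 0.26). H2B shared 5 (probe set 10408070) read 10.76, 10.55, 10.93 and 10.67 without and 10.03, 9.89, 9.89 and 9.92 with the drug in the conventional clone. It read 12.50, 12.54, 12.76 and 12.68 without and 11.99, 11.90, 12.19 and 12.25 with it in the unconventional clone. The groups did not overlap in either clone. These probe sets overlap in the genes they detect, and H2B shared 2 and 6 have identical values, so they are not 7 independent measurements.

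The H2B probe sets of 1 gene spread far more widely than the shared ones. Of these 11, 3 rose and 1 fell in the conventional clone, against 13.5% and 13.7% of all probe sets. In the unconventional clone 1 rose and 5 fell, against 10.2% and 10.4%. The 1 lower and the 1 higher are near the share of all probe sets. H2bc18 (probe set 10494407), of the Hist2 cluster, rose in the conventional clone and fell in the unconventional clone. Its values were 7.10, 6.93, 7.02 and 7.06 without and 7.29, 7.43, 7.38 and 7.22 with the drug in the conventional clone. They were 8.73, 8.59, 8.79 and 8.79 without and 8.06, 7.74, 8.37 and 7.96 with it in the unconventional clone. No groups overlapped within a clone. The rise of 0.30 (SE 0.10) had an adjusted p of 0.0335 and was called in 10 of the 16 fits that each leave out 1 array, with values of 0.27 to 0.34. With each array centred on its median the rise was 0.28 and not called (adjusted p = 0.065). The fall of 0.70 (SE 0.10, adjusted p = 4.8e-05) was called in all 16. The effects differed by −0.997 (SE 0.14, adjusted p = 7.62e-05), the largest difference in that direction among the 58.

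H2bc4 (Hist1h2bc, probe set 10404053), another gene known to make polyadenylated transcripts, rose in both clones. It read 7.94, 7.97, 7.20 and 7.53 without and 8.080, 8.453, 8.0003 and 8.022 with the drug in the conventional clone, a change of 0.48 (SE 0.15, adjusted p = 0.02). The unconventional values were 5.91, 5.91, 5.95 and 5.87 without and 6.26, 6.63, 6.26 and 6.19 with it, a change of 0.42 (SE 0.15, adjusted p = 0.0489). The groups did not overlap in either clone, but untreated replicate 2 of the conventional clone, at 7.97, lay just below the lowest treated array, replicate 3. The conventional call held in 13 of 16 fits without 1 array and was lost without untreated replicate 3 (0.32, adjusted p = 0.078), untreated replicate 4 (0.43, adjusted p = 0.059) or treated replicate 2 (0.37, adjusted p = 0.0746). The unconventional call held in 5 of 16, with values of 0.33 to 0.47, and was lost with median centring (0.38, adjusted p = 0.123) and quantile normalization (0.35, adjusted p = 0.0788). H2bc21, also known for polyadenylated transcripts, was not called, with log2 differences of 0.29 and 0.23 (SE 0.12 each).

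H2bu2 (Hist3h2ba) rose in the conventional clone. It read 4.99, 5.19, 4.99 and 4.89 without and 5.45, 5.32, 5.27 and 5.29 with the drug there, a change of 0.32 (SE 0.09, adjusted p = 0.0117). The unconventional values were 5.37, 4.98, 5.17 and 5.15 without and 4.96, 5.23, 4.93 and 5.16 with it, with overlap and a change of −0.09 (SE 0.09).

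H2bc9, H2bc3 and H2bc8 fell in the unconventional clone and were not called in the conventional clone. H2bc9 read 7.89, 7.88, 8.12 and 7.98 without and 7.96, 7.89, 7.95 and 7.71 with cyclosporine A in the conventional clone, a change of −0.09 (SE 0.10) with overlapping groups. In the unconventional clone it read 9.70, 9.33, 9.32 and 9.53 without and 8.98, 8.65, 8.66 and 8.90 with the drug, a change of −0.68 (SE 0.10, adjusted p = 4.73e-05) with no overlap. The difference of the effects was −0.59 (SE 0.14, adjusted p = 0.00728). H2bc3 (probe set 10404061) had a log2 difference of −0.37 (SE 0.16, adjusted p = 0.101) in the conventional clone and fell by 0.82 (SE 0.16, adjusted p = 0.000809) in the unconventional clone, and its effects did not differ by the test (−0.45, SE 0.23). It read 8.20, 8.26, 8.51 and 8.36 without and 7.47, 7.13, 7.66 and 7.80 with the drug in the unconventional clone, without overlap, and 5.84, 5.14, 5.91 and 5.29 without and 5.35, 5.13, 5.04 and 5.16 with it in the conventional clone. The untreated conventional arrays of replicates 2 and 4 lay among the treated ones, and without untreated replicate 2 the conventional change was called (−0.51, adjusted p = 0.0213). H2bc14 fell in both clones, by 0.34 (SE 0.12) and 0.63 (SE 0.12), the former called in 10 of the 16 fits without 1 array.

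The shared H3 probe sets fell further in the conventional clone than in the unconventional clone. All 10, each with the same 12 H3 genes of the Hist1 and Hist2 clusters, fell in the conventional clone by 0.93 to 1.01, with a median change of −0.97. In the unconventional clone all 10 fell by 0.32 to 0.40, with a median of −0.33. Their untreated means there were 12.93 to 13.55, beside a highest value of 14.55 for any probe set. Whether values this high on the scale compress a change was not tested, and this limits the comparison of the clones. H3 shared 4 (probe set 10404065) read 11.89, 11.71, 12.12 and 11.66 without and 10.95, 10.77, 10.84 and 10.89 with the drug in the conventional clone. It read 13.46, 13.51, 13.57 and 13.64 without and 13.06, 13.12, 13.45 and 13.28 with it in the unconventional clone. The groups were separate in both, but in the unconventional clone the highest treated array, at 13.45, lay just below the lowest untreated one, at 13.46. The changes were −0.98 (SE 0.10, adjusted p = 2.63e-07) and −0.32 (SE 0.10, adjusted p = 0.0246).

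H3 shared 3, 6 and 7 gave the same picture. H3 shared 3 read 11.79, 11.59, 12.01 and 11.54 without and 10.82, 10.64, 10.71 and 10.76 with the drug in the conventional clone, and 13.36, 13.41, 13.47 and 13.55 without and 12.95, 13.01, 13.37 and 13.18 with it in the unconventional clone. H3 shared 6 read 11.65, 11.48, 11.88 and 11.42 without and 10.67, 10.47, 10.58 and 10.67 with it in the former, and 13.22, 13.30, 13.34 and 13.44 without and 12.82, 12.87, 13.25 and 13.05 with it in the latter. H3 shared 7 read 11.84, 11.65, 12.07 and 11.60 without and 10.90, 10.70, 10.84 and 10.84 with it in the former, and 13.41, 13.49, 13.53 and 13.62 without and 13.01, 13.06, 13.38 and 13.24 with it in the latter. The conventional groups were separate for all 3. In the unconventional clone treated replicate 3 lay above untreated replicate 1 for H3 shared 3 and 6 and below it for H3 shared 7.

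The effects on the 10 shared H3 probe sets differed by 0.57 to 0.68, and all 10 differences were called, as they were in each of the 16 fits without 1 array. Their falls in the unconventional clone were less secure. H3 shared 9 was called in all 16 of those fits, and the other 9 in 11 to 13. These 10 probe sets detect the same genes and are in effect repeat readings of 1 pool of H3 transcripts.

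The 3 H3 probe sets of 1 gene lay low on the scale. H3c15 read 4.06, 4.40, 3.79 and 4.30 without and 3.59, 3.64, 3.29 and 3.61 with the drug in the conventional clone, a change of −0.60 (SE 0.23) that missed the threshold with an adjusted p of 0.0591. In the unconventional clone it read 4.39, 6.04, 5.31 and 5.07 without and 4.41, 4.46, 4.37 and 4.53 with it, a change of −0.76 (SE 0.23, adjusted p = 0.0214). The conventional groups did not overlap, while the untreated unconventional arrays spread from 4.39 to 6.04 and replicate 1 lay among the treated arrays. The unconventional call held in 12 of the 16 fits without 1 array, with values of −1.03 to −0.48, the latter without untreated replicate 2 (adjusted p = 0.0688). H3c4 and H3c7 were not called with the drug in either clone. H3c4 read 4.95, 5.20, 5.13 and 4.88 without and 5.27, 4.65, 5.22 and 5.18 with the drug in the conventional clone, and 5.69, 5.39, 5.58 and 5.78 without and 5.52, 5.38, 5.84 and 5.22 with it in the unconventional clone. H3c7 read 3.07, 2.98, 2.96 and 2.86 without and 2.93, 3.08, 2.79 and 2.83 with it in the former, and 3.31, 3.07, 3.18 and 3.31 without and 3.25, 2.78, 3.01 and 3.06 with it in the latter. Both overlapped in both clones.

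All 13 H4 probe sets were called lower in the unconventional clone, against 10.4% of all probe sets. In the conventional clone all 13 had negative log2 differences, and 3 were called lower, against 13.7% of all. The 5 shared H4 probe sets, which name the same 11 genes, had log2 differences of −0.22 to −0.18 in the conventional clone, none of them called. They fell by 0.39 to 0.43 in the unconventional clone. H4 shared 1 and 4 have identical values, so these are not 5 independent measurements. H4 shared 2 (probe set 10404067) read 11.20, 11.05, 11.41 and 11.22 without and 11.10, 10.85, 11.07 and 11.10 with the drug in the conventional clone. It read 12.63, 12.79, 12.84 and 13.00 without and 12.26, 12.23, 12.54 and 12.67 with it in the unconventional clone. The groups overlapped in both clones, and the unconventional call of this probe set held in 13 of the 16 fits without 1 array. The differences of the effects, −0.22 to −0.17 (SE 0.15 each), were not called for any of the 5.

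H4c6 (probe set 10408200) fell in both clones. Its values were 8.80, 8.70, 8.99 and 8.43 without and 8.35, 7.69, 8.27 and 8.28 with the drug in the conventional clone, a change of −0.58 (SE 0.16, adjusted p = 0.00949). They were 10.94, 10.65, 11.13 and 11.12 without and 10.09, 9.92, 10.32 and 10.52 with it in the unconventional clone, a change of −0.74 (SE 0.16, adjusted p = 0.00196). The groups did not overlap in either clone. H4c9 read 7.48, 7.05, 7.27 and 7.63 without and 6.67, 6.89, 6.83 and 6.79 with the drug in the conventional clone, and 7.50, 7.72, 7.90 and 7.63 without and 6.94, 7.34, 7.51 and 7.18 with it in the unconventional clone, where treated replicate 3 overlapped the untreated arrays. It fell by 0.56 and 0.44 (SE 0.13 each), the latter called in 14 of the 16 fits without 1 array, and the probe set of H4c17 with H4c11 fell by 0.81 and 0.86 (SE 0.23 each). H4c3, H4c4, H4c14 and H4f16 fell by 0.54 to 0.75 in the unconventional clone and were not called in the conventional clone, where their log2 differences were −0.20 to −0.05. Of these, H4c3 read 7.47, 6.93, 6.98 and 7.28 without and 6.97, 6.71, 6.92 and 7.28 with the drug in the conventional clone, with overlap, and 8.18, 8.63, 8.82 and 8.80 without and 7.77, 7.78, 7.80 and 8.07 with it in the unconventional clone, without overlap. H4f16, the gene of the Hist4 cluster, was the only H4 probe set whose effects differed by the test (−0.34, SE 0.10, adjusted p = 0.0374).

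**Figure D2:**
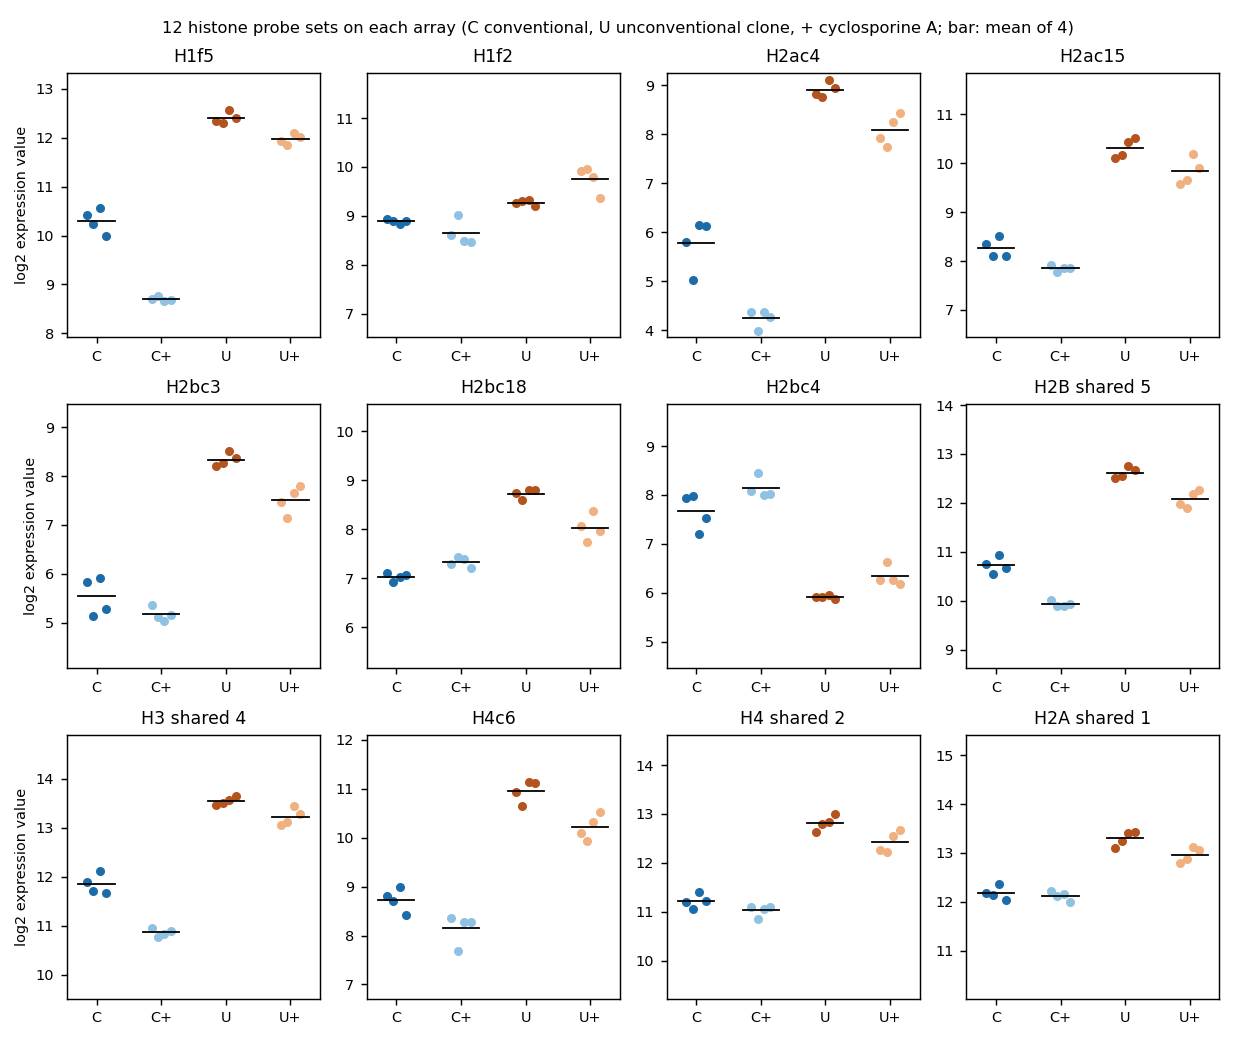
Log2 expression values (y axis, the same span in each panel) of 12 histone probe sets on every array of the 4 groups (x axis: C conventional, U unconventional, + with cyclosporine A), with the mean of 4 arrays as a bar. H1f5 drops from 10.30 to 8.70 in the conventional clone and from 12.40 to 11.98 in the unconventional clone, and H2bc4 is the panel where the unconventional clone is the lower one.

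Over all 58 probe sets, the test of the difference of cyclosporine A effects called 12 higher and 5 lower in the unconventional clone, against 6.77% and 6.09% of all probe sets. The 12 were the 10 shared H3 probe sets, H1f5 and H1f2. The 5 were H2bc18, H2bc9, H2bu1-ps, H2bu2 and H4f16. H2bc18 and H2bc9 were called in each of the 16 fits without 1 array, H2bu1-ps in 9 and H2bu2 and H4f16 in 5. Of the 4 probe sets of the Hist3 cluster, all had positive log2 differences in the conventional clone (0.07 to 0.32) and negative ones in the unconventional clone (−0.24 to −0.09), and of these 8 values the 1 that was called was that of H2bu2 in the conventional clone.

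The core histone classes changed unequally within the same arrays. The mean of the 10 shared H3 probe sets minus the mean of the 5 shared H4 probe sets was 0.74 ± 0.11 (SD, n = 4) in the untreated conventional arrays and −0.02 ± 0.04 (SD, n = 4) with cyclosporine A. Each of the 4 untreated arrays was above each treated one, with 0.58 to 0.83 against −0.06 to 0.01. This gap in the unconventional clone was 0.86 ± 0.06 without and 0.93 ± 0.13 with the drug (SD, n = 4), and the groups overlapped. The gap of H3 over the shared H2A probe sets went from −0.24 ± 0.08 to −1.17 ± 0.09 in the conventional clone and stood at 0.35 ± 0.09 and 0.35 ± 0.07 in the unconventional clone (SD, n = 4). The gap of H2B over H2A went from −1.60 ± 0.08 to −2.26 ± 0.04 and from −0.89 ± 0.05 to −1.06 ± 0.07 (SD, n = 4). Such a gap is not a ratio of transcripts, since probe sets differ in brightness. Its change shows unequal change between classes and does not by itself show which class moved. The class means come from the same array values as above. In the conventional clone they went from 11.65 to 10.68 (H3) and from 10.28 to 9.59 (H2B). Those of H4 went from 10.91 to 10.7 and those of H2A from 11.89 to 11.85. The unconventional H3 means lay higher, at 13.36 and 13.02, and compression near the top of the scale was not tested.

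**Figure D3:**
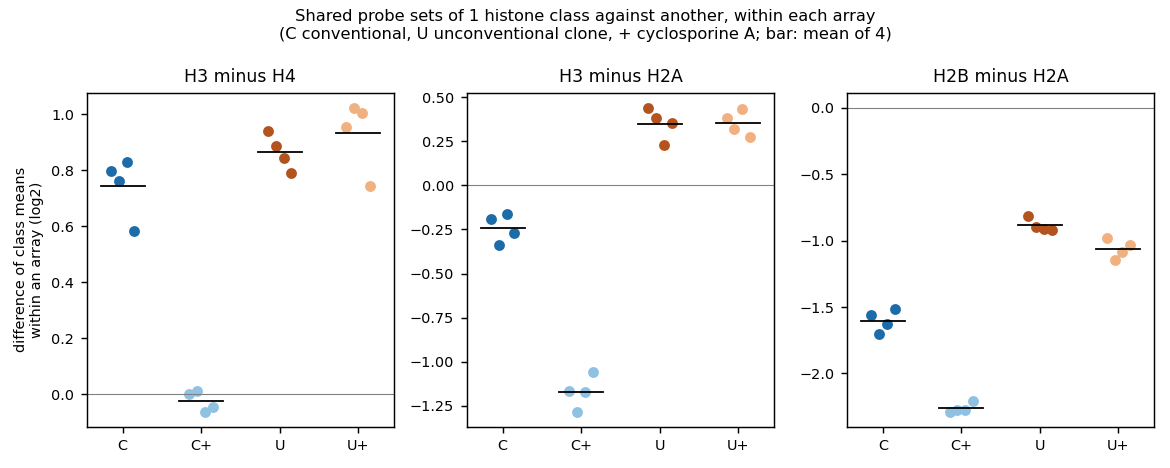
Difference between the mean log2 values of the shared probe sets of a pair of histone classes within each array (y axis), by group (x axis: C conventional, U unconventional, + with cyclosporine A), with the mean of 4 arrays as a bar. The H3 minus H4 gap is 0.58 to 0.83 on untreated and −0.06 to 0.01 on treated conventional arrays, and overlaps between the unconventional groups.

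Between the clones the histone probe sets differed more than with the drug. With anti-CD3 alone, 54 of 58 were higher and 1 was lower in the unconventional clone, against 18.1% and 19.7% of all probe sets. The median difference was 1.56, beside −0.07 for all probe sets, and 41 were called and at least 2-fold higher, against 3.8% of all. The arrays of the unconventional clone lay wholly above those of the conventional clone for 50 of the 58, against 16.9% of all. With cyclosporine A, 50 were higher and 3 lower, against 18.6% and 20.8% of all, with a median difference of 1.20. Of these, 31 were at least 2-fold higher, against 4.73% of all, and 48 had no overlap of arrays, against 18.4%. These differences share their arrays with the drug comparisons and are no separate support for them.

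H2ac4 differed by 3.14 (SE 0.20) with anti-CD3 alone and by 3.83 (SE 0.20) with cyclosporine A. Its treated conventional mean was 4.25, in the range of Cd4 (4.21 to 4.32) and below the median probe set (5.28), so that level was not shown to be above background and no fold is given. H1f5 differed by 2.10 and 3.28 (SE 0.10 each), a 4.30-fold and a 9.71-fold difference, and H2bc3 by 2.79 and 2.34 (SE 0.16 each). The shared probe sets of H3 differed by 1.66 to 1.75 and 2.28 to 2.40, those of H2B by 1.66 to 1.93 and 1.78 to 2.17, and those of H4 by 1.51 to 1.64 and 1.35 to 1.42. Smaller differences were seen in H1f1 (0.22 and 0.23) and H4c9 (0.33 and 0.45), and quantile normalization left none of these 4 called.

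H2bc4 was the probe set lower in the unconventional clone in both conditions, by −1.75 (SE 0.15, adjusted p = 1.75e-08) with anti-CD3 alone and −1.80 (SE 0.15, adjusted p = 8.32e-09) with cyclosporine A. All 8 arrays of the conventional clone were above all 8 of the unconventional clone, with 7.20 as the lowest of the former and 6.63 as the highest of the latter. H1f6 and H2bu2 were also lower in the unconventional clone with cyclosporine A, by −0.33 (SE 0.11) and −0.26 (SE 0.09), and both calls were lost with quantile normalization (−0.25 and −0.21, adjusted p = 0.079 and 0.0956). The 3 testis histone genes were not called with the drug in either clone, yet H2ac1 and H2bc1 were higher in the unconventional clone with anti-CD3 alone, by 0.95 (SE 0.10) and 1.25 (SE 0.18). The untreated conventional mean of H2bc1 was 4.55, below the median probe set (5.28), and was not shown to be above background.

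**Figure D4:**
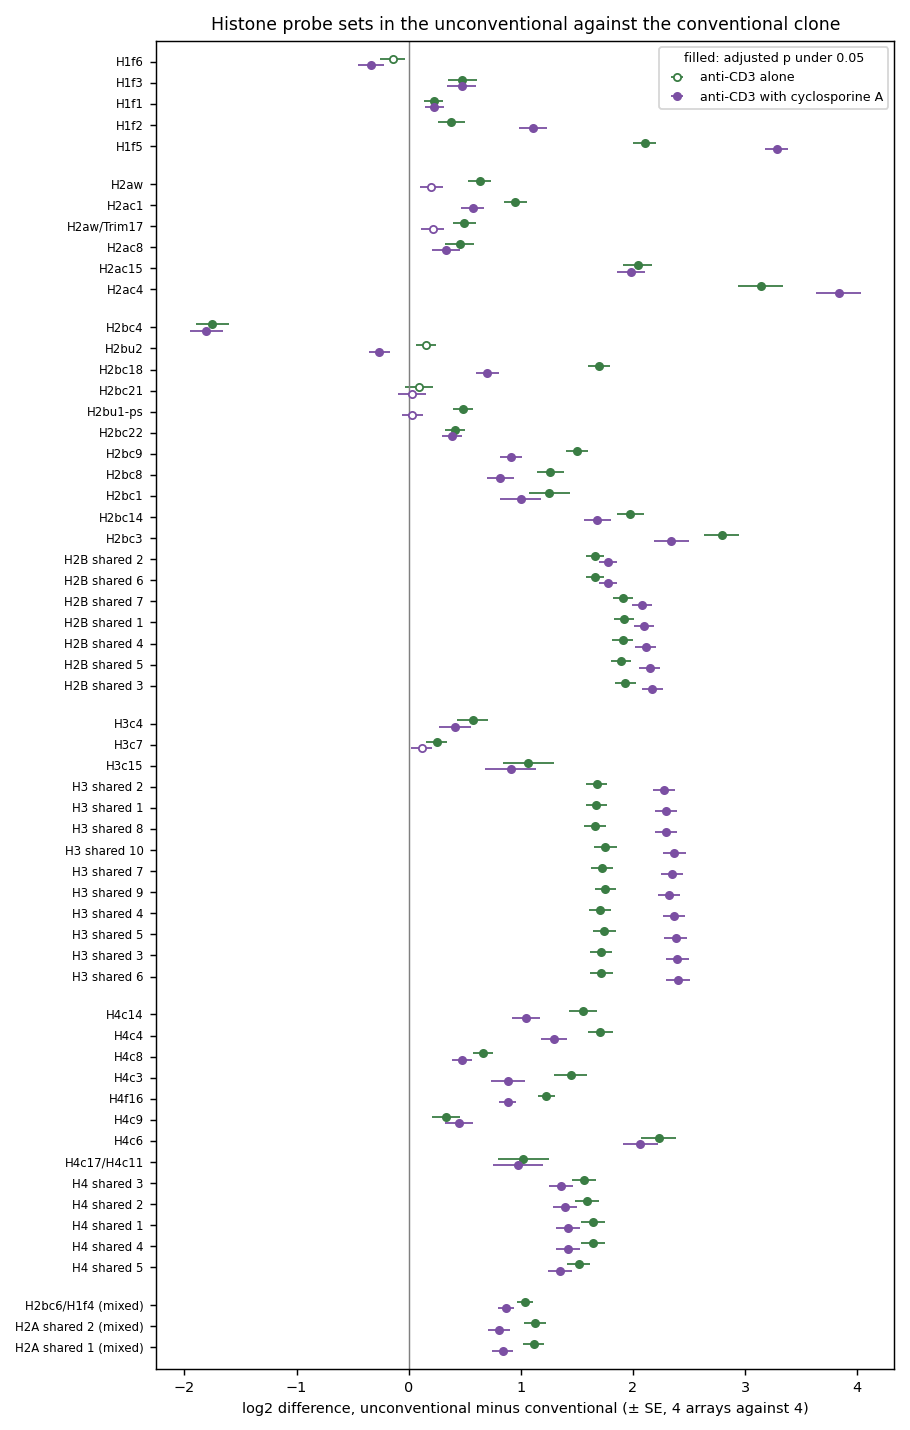
Log2 difference between the clones, unconventional minus conventional (x axis, with its SE), for each of the 58 histone probe sets (y axis, by class), with anti-CD3 alone (green) and with cyclosporine A (purple), filled where the adjusted p is under 0.05. H2ac4 reaches 3.83, and H2bc4 lies at −1.75 and −1.80 on the other side of 0.

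Genes that act with the histone genes were read from lists, whose counts stand against 13.7% of all probe sets lower and 13.5% higher in the conventional clone and 10.4% lower and 10.2% higher in the unconventional clone. Of 28 S phase genes, 27 fell and 1 rose with cyclosporine A in the conventional clone, with a median change of −1.49, and 27 fell in the unconventional clone, with a median of −0.54. In the conventional clone this list's median was further from 0 than that of the histone probe sets (−0.23). Ccna2 (cyclin A2) fell by 3.51 and 0.82 (SE 0.16 each), Uhrf1 by 3.33 and 0.75 (SE 0.10 each), and Pcna, the sliding clamp of DNA polymerase, by 0.57 and 0.37 (SE 0.06 each). All 28 were higher in the unconventional clone with anti-CD3 alone, with a median difference of 1.49.

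Of 22 genes of histone mRNA transcription and processing, 5 rose and 12 fell in the conventional clone and 7 fell in the unconventional clone, with medians of −0.29 and −0.18. Slbp, whose protein binds the stem-loop, fell by 0.71 (SE 0.07, adjusted p = 1.91e-07) in the conventional clone and was not called, at −0.18 (SE 0.07, adjusted p = 0.0882), in the unconventional clone, and these effects differed by 0.54 (SE 0.10). Npat, the coactivator of histone genes, was not called in either clone, with a change of −0.16 (SE 0.10) in each. Ccne2, a cyclin E that activates CDK2, the kinase of NPAT, fell by 3.57 and 0.89 (SE 0.17 each). Upf1, a helicase in histone mRNA decay, rose by 0.81 (SE 0.09) in the conventional clone.

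Of 18 histone chaperone and deposition genes, 15 fell and 1 rose in the conventional clone and 12 fell in the unconventional clone, with medians of −0.92 and −0.28. Asf1b, a chaperone of new H3 and H4, fell by 2.48 and 0.44 (SE 0.10 each), and Chaf1b, a subunit of the CAF-1 complex that places H3 and H4 on new DNA, by 2.10 and 0.34 (SE 0.08 each). Of 9 replication-independent histone variants, 4 fell and 1 rose in the conventional clone and 2 rose in the unconventional clone, beside 13.5% and 10.2% of all probe sets higher in these comparisons. Few genes are in this list, and nothing is read from its counts. H2az2 (H2afv), an H2A.Z variant, rose by 0.39 and 1.09 (SE 0.09 each), and H2az1 (H2afz) fell by 0.22 (SE 0.07) in the conventional clone and was not called, at 0.07 (SE 0.07), in the unconventional clone. H2ax (H2afx), the variant phosphorylated at DNA breaks, fell by 0.36 (SE 0.09) in the conventional clone and was not called, at −0.20 (SE 0.09), in the unconventional clone.

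**Figure D5:**
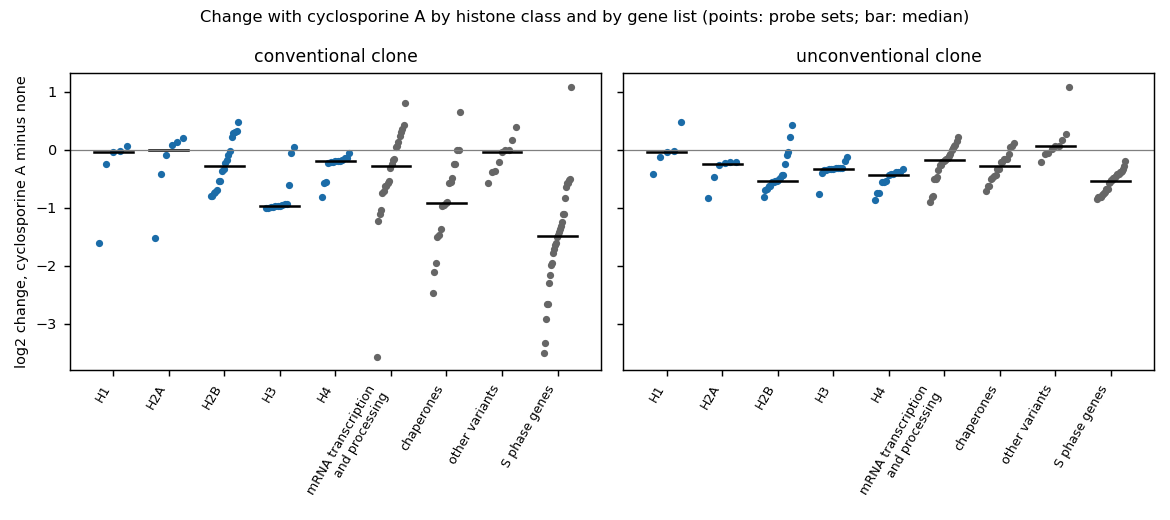
Log2 change with cyclosporine A (y axis) of each probe set of the 5 histone classes (blue) and of the genes of 4 lists (grey), in the conventional clone (left) and the unconventional clone (right), with the median as a bar. In the conventional clone the S phase genes have a median of −1.49 while the classes of histone range from −0.96 (H3) to −0.01 (H2A), and in the unconventional clone the S phase median is −0.54.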

How the data were processed

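RNA of 16 samples was measured on Affymetrix whole-transcript arrays. The values used are log2 expression values of 28853 probe sets, as deposited by the authors. The submitters' processing notes name GCOS, Partek 6.2 and RMA, with no role or order. RMA as usually run makes the arrays alike in distribution, which can hide a shift shared by most transcripts, and their genome build is not given in the sources used here. Precision is limited by the number of arrays, which have no read depth.

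All probe sets were fitted with limma 3.58.1 in R 4.3.3 (lmFit and eBayes), with 1 mean for each of the 4 groups, 5 contrasts and Benjamini-Hochberg adjustment over all probe sets, called at an adjusted p under 0.05. The script was tested on simulated data. No probe set was filtered out. Histone genes were found through synonyms in the RefSeq gene table of GRCm38.p6, and a probe set with symbols of several classes was kept and counted once. A list gene with several probe sets was read from the one with the highest mean among those with 1 symbol. Of the list genes named above, Pcna, Slbp and H2az1 have 2 such probe sets each, and the lower one was not read. The members and lists were chosen with earlier results of these data known. Values by array are given, in each class, for the 2 probe sets of 1 gene with the largest change with cyclosporine A in the conventional clone and the 1 with the largest difference of effects, for up to 4 called against the majority in each contrast, and for the 3 with the highest mean. H2B shared 5, H2bc9 and H4 shared 2 were added after their values were seen. Non-members were named from the lists as fixed genes or for the size of their change. The alternatives were median centring, quantile normalization, a filter on low probe sets, trend and robust moderation, 1 gene symbol only, a replicate block and leaving out each array.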

Additional observations from a re-analysis of the deposited data

Results flagged for a closer look

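Among the 20 histone probe sets chosen by the rule for values by array, each group of 4 arrays was tested for an array that stands apart, 80 groups in all, and 5 had one by Dixon's criterion on the gap to the next array. Chance alone gives about 1 in 20, so 5 of 80 is near that share. In the treated unconventional group the highest array of H2bc4 was at 6.63 with the next at 6.26, and that of H4c3 at 8.07 with the next at 7.80. In the treated conventional group the lowest array of H3c15 was at 3.29 with the next at 3.59, that of H3c4 at 4.65 with the next at 5.18, and that of H4c6 at 7.69 with the next at 8.27.

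The effect of cyclosporine A differed between the clones, by limma's test of the difference (unconventional minus conventional), for 17 histone probe sets. It was higher in the unconventional clone for H1f5 (1.18), H1f2 (0.72) and the 10 shared H3 probe sets, whose differences in the order of their numbers were 0.62, 0.60, 0.68, 0.66, 0.63, 0.68, 0.63, 0.63, 0.57 and 0.61. It was lower for H2bc18 (−0.997), H2bc9 (−0.59), H2bu1-ps (−0.45), H2bu2 (−0.42) and H4f16 (−0.34).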

How the results depend on the processing

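No value of the 58 histone probe sets reversed its direction in a called comparison under any setting run. Of their 1555 values under the settings other than leaving out an array, 1516 kept their call, 15 lost it and 24 gained it, and of 4640 values with an array left out, 4454 kept it, 158 lost it and 28 gained it. The count called higher with cyclosporine A in the unconventional clone was 1 in place of 2 under median centring and under quantile normalization, where H2bc4 lost its call. The count lower in the unconventional than in the conventional clone with cyclosporine A was 1 in place of 3 under quantile normalization. It was also 1 with only probe sets at or above the median level, which leaves 48 of the 58. That count is by construction, since H1f6 and H2bu2 lie below that level and were not tested there. With only probe sets of 1 gene symbol, 31 of the 58 remain by construction. The counts there were 7 lower in the conventional clone and 16 lower in the unconventional clone with cyclosporine A, and 2 differences higher. Between the clones, 27 and 24 were higher in the unconventional clone without and with the drug. The shares of all probe sets in the main fit were, in the same order, 13.7%, 10.4%, 6.77%, 18.1% and 18.6%. The 2 differences higher are near that share.

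Leaving out each array in turn moved the counts for cyclosporine A between 23 and 26 lower and 1 and 4 higher in the conventional clone, and between 28 and 44 lower and 1 and 2 higher in the unconventional clone. The differences of effects ran between 2 and 8 lower and 12 and 13 higher, the clone differences with anti-CD3 alone between 50 and 54 higher with 1 lower, and those with cyclosporine A between 47 and 50 higher and 1 and 3 lower. The 5 differences called lower became 2 without treated conventional replicate 1, untreated unconventional replicate 3 or treated unconventional replicate 1, 3 without untreated conventional replicates 1, 2 or 4, treated conventional replicate 4, untreated unconventional replicate 4 or treated unconventional replicate 2, and 8 without untreated unconventional replicate 1.

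The labels do not say whether the replicate numbers pair the samples. Deviations of arrays with the same number correlated at −0.18 to 0.29, and over 0.1 in 4 of 24 pairs. Those of arrays with different numbers correlated at −0.35 to 0.35. With 4 arrays per group and such wide ranges, these correlations cannot decide whether the samples were paired. With the replicate block the counts with cyclosporine A were 27 lower and 3 higher in the conventional clone, 43 and 2 in the unconventional clone, and 7 lower and 13 higher for the difference of effects, where H2ac4 gained a call (0.69, adjusted p = 0.0192).

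Probe sets shared by 11 to 20 genes cannot say which gene moved. Of the 58, 10 have a mean below the median of all probe sets (5.28), where arrays compress a change.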
